A study of Mus musculus with 9 samples.

Results

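The genes described here mark the blood vessels of the brain: endothelial cells, which line the vessels, and mural cells, the pericytes and smooth muscle cells that wrap them. They were taken from a list of 40 names, and a probe belonged to the set when its gene name on the array was one of those names, which the array writes in capitals (CLDN5, PECAM1, RGS5 and ACTA2 for Cldn5, Pecam1, Rgs5 and Acta2). A total of 39 genes had a probe, of 30854 gene names on the array, and they had 55 of the 45281 probes. Mfsd2a, a lipid transporter of the blood-brain barrier, had no probe under that name. The mice were males aged 8 weeks, of the strain Chat-Cre:Ai9, and brainstem RNA was measured on 9 arrays, 3 for each of the regions labelled dorsal, target and ventral. All groups share the same alleles, namely Cre recombinase driven from Chat, a gene active in cholinergic neurons, and Ai9, a tdTomato reporter that Cre switches on. The sources used here do not state what the target region was, how tissue was dissected or whether animals were pooled. Per the file headers, array numbers 1 to 3 name the mouse, so each mouse gave all 3 regions.

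Brain endothelial cells are joined by tight junctions and carry nutrient carriers and efflux pumps, which together form the blood-brain barrier. Pericytes sit in the basement membrane of capillaries and help to keep the barrier closed, while smooth muscle cells surround arterioles and set their width through contractile proteins. Endothelial cells attract pericytes through platelet-derived growth factor and its receptor, encoded by Pdgfrb, and both cell types lay down the collagen IV sheet between them.

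Across the series, 16703 (ventral array 2) to 19945 (dorsal array 3) probes per array were above background, meaning a detection p below 0.05 against the array's negative control beads. A probe was tested when it was above background on at least 3 of the 9 arrays, which held for 20461 probes. Pairs of arrays correlated between 0.892 and 0.961 over these probes. Levels and differences below are on the log2 scale after background correction and quantile normalization, with n = 3 arrays per region, and the number of arrays limits their precision. The level of one probe cannot be set against that of another.

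Of the 55 vascular probes, 28 probes of 23 genes were tested, which is 50.9% against 45.2% of all probes on the array. A total of 17 probes, of 15 genes, were above background on all 9 arrays (30.9% against 26.9% of all probes), and another 17 were above background on none. The 16 genes with no tested probe include several defining ones. Both probes of Kdr, the main receptor of vascular endothelial growth factor, and the probes of Eng, Abcg2 and Sox18 were at background on all 9 arrays. So were those of Pdgfrb, Anpep and Cnn1, and both probes each of Tagln and Myh11, which encode smooth muscle contractile proteins. Vwf, the clotting factor stored by endothelial cells, and Notch3, a mural cell receptor, were above background on 2 dorsal arrays each and on no other. Abcb1a, Plvap and 1 probe of Itm2a were above background on 1 target array, and it was array 3 for all of them. Higd1b was so on 1 ventral array, and the Bsg probes on 1 dorsal array and 1 target array. For these 16 genes the arrays gave no comparison between regions, and a probe at background does not show that its gene is silent. Among the defining endothelial genes Cldn5, Pecam1 and Flt1 were above background on all 9 arrays, on 1 probe each. Pecam1 probe 1030739 and Flt1 probe 7650605 were at background on all 9. Tie1 was above background on 7 arrays. Cdh5, a defining gene outside the list of names, was so on 6 arrays for probe 1030273 and on none for probe 1230129. Among the mural genes Rgs5 was above background on all 9 arrays, as was Acta2 on probes 1850022, 3130136 and 430068. Acta2 probe 2140255 was so on 7 arrays and probe 4540376 on 1 dorsal array. Both cell classes thus gave signal in every region, from a part of their markers.

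**Figure D1:**
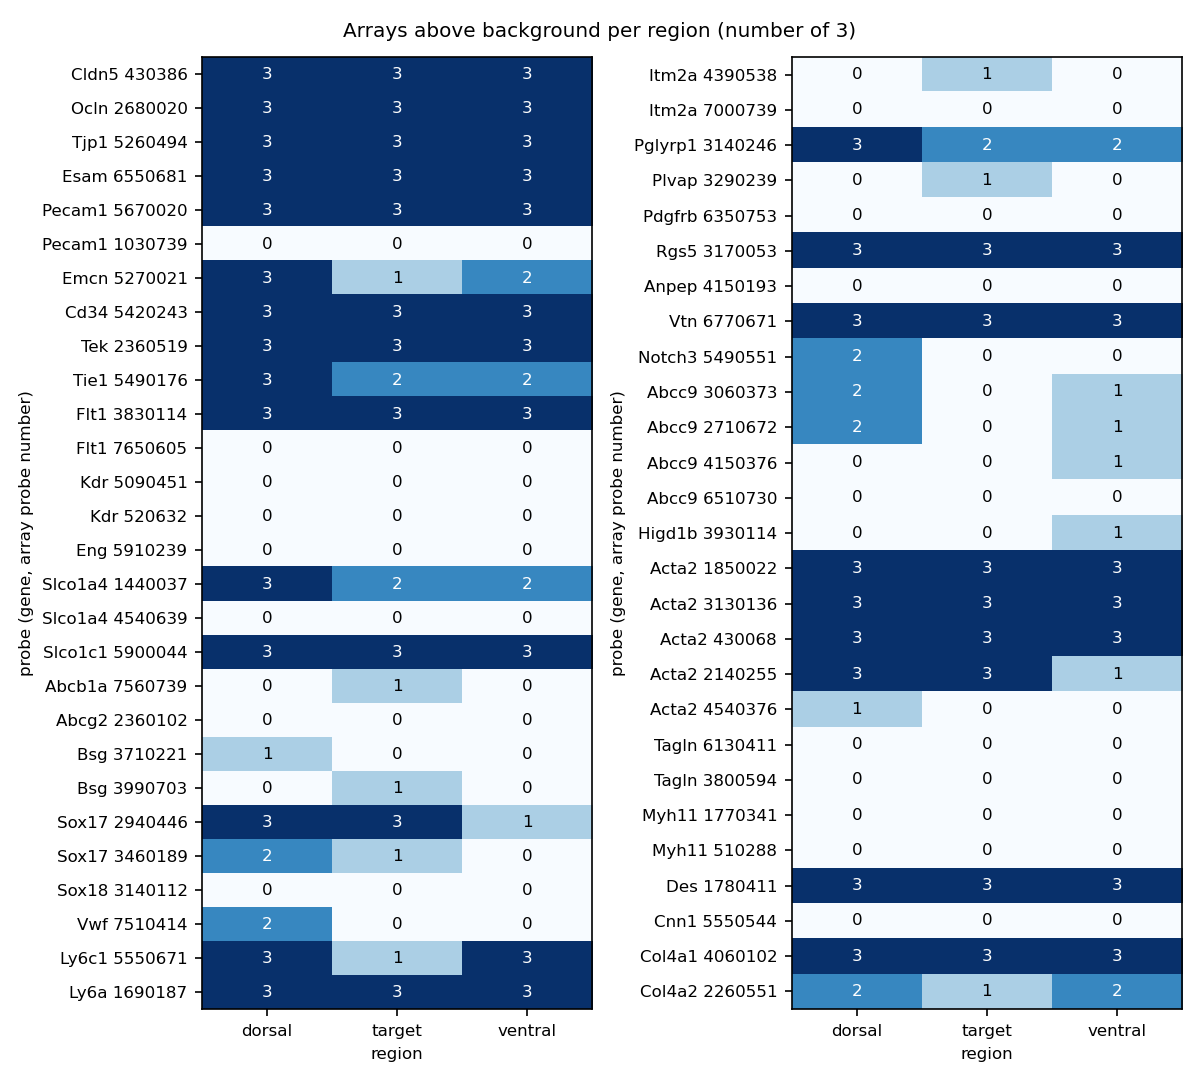
Number of the 3 arrays per region (columns) on which each of the 55 vascular probes (rows, grouped by role) was above background. Filled cells gather in genes such as Cldn5, Rgs5 and Flt1, and 17 probes are empty in every region.

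The design implies a comparison of each pair of regions, and here it asks whether vascular genes differed in level between parts of the brainstem. No vascular probe passed the test in any pair, nor in the moderated F-test over the 3 regions (limma, Benjamini-Hochberg over all 20461 probes, threshold 0.05). The count was 0 of 28 for target minus dorsal, where 0.0586% of all tested probes passed, and 0 of 28 for target minus ventral, where 1.78% passed. It was also 0 of 28 for dorsal minus ventral, where 7.98% passed, and for the F-test, where 5.23% passed. At an unadjusted p below 0.05, 2, 6 and 3 of the 28 probes lay past the limit in the 3 pairs, in that order. The shares were 7.14%, 21.4% and 10.7%, against 9.60%, 16% and 22.2% of all tested probes, and in the F-test 4 probes (14.3%) against 19.5%. With the mouse as a block the count of vascular probes was again 0 in every pair and in the F-test, where 0.0147%, 0.753%, 6.58% and 3.74% of all probes passed. In bulk tissue, fewer cells of a type and less RNA per cell cannot be told apart, which holds for every difference below.

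The median of the vascular differences was -0.01 for target minus dorsal, -0.03 for target minus ventral and 0.08 for dorsal minus ventral, and over all tested probes it was -0.02, 0.02 and 0.04. The differences were above 0 for 13, 13 and 16 of the 28 probes, against 48.1%, 52% and 53.4% of all. The median size, whatever the sign, was 0.24, 0.27 and 0.30, against 0.23, 0.27 and 0.32 of all. A size over 1 was seen for 1, 0 and 1 of the 28 probes, against 2.34%, 4.76% and 9.01% of all. Differences ran from -0.61 to 1.16 for target minus dorsal, from -1.0 to 0.99 for target minus ventral and from -1.02 to 0.78 for dorsal minus ventral.

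The 3 arrays of a pair's regions did not overlap for 6 probes in target against dorsal, 2 with target higher and 4 with target lower, where 8.26% and 9.20% of all tested probes did so. In target against ventral 2 were higher (11.2% of all) and 4 were lower (9.92%). In dorsal against ventral none was higher (14.2% of all) and 3 were lower (12.5%). The sign was the same in 3 of 3 mice for 11, 12 and 8 of the 28 probes, against 33.8%, 39.7% and 42.8% of all. A region that stood apart from all 6 arrays of the other two was seen for 5 probes. These were Tjp1 for ventral (3.57% of the 28 probes, against 13.3% of all tested probes) and Tek for dorsal (3.57% against 9.01%). For target they were Emcn, Ly6c1 and 1 Abcc9 probe (10.7% against 2.28%). These 3 were low in target, with 1, 1 and 0 target arrays above background. They met the filter for testing through the other regions, so their share is not independent of that filter.

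**Figure D2:**
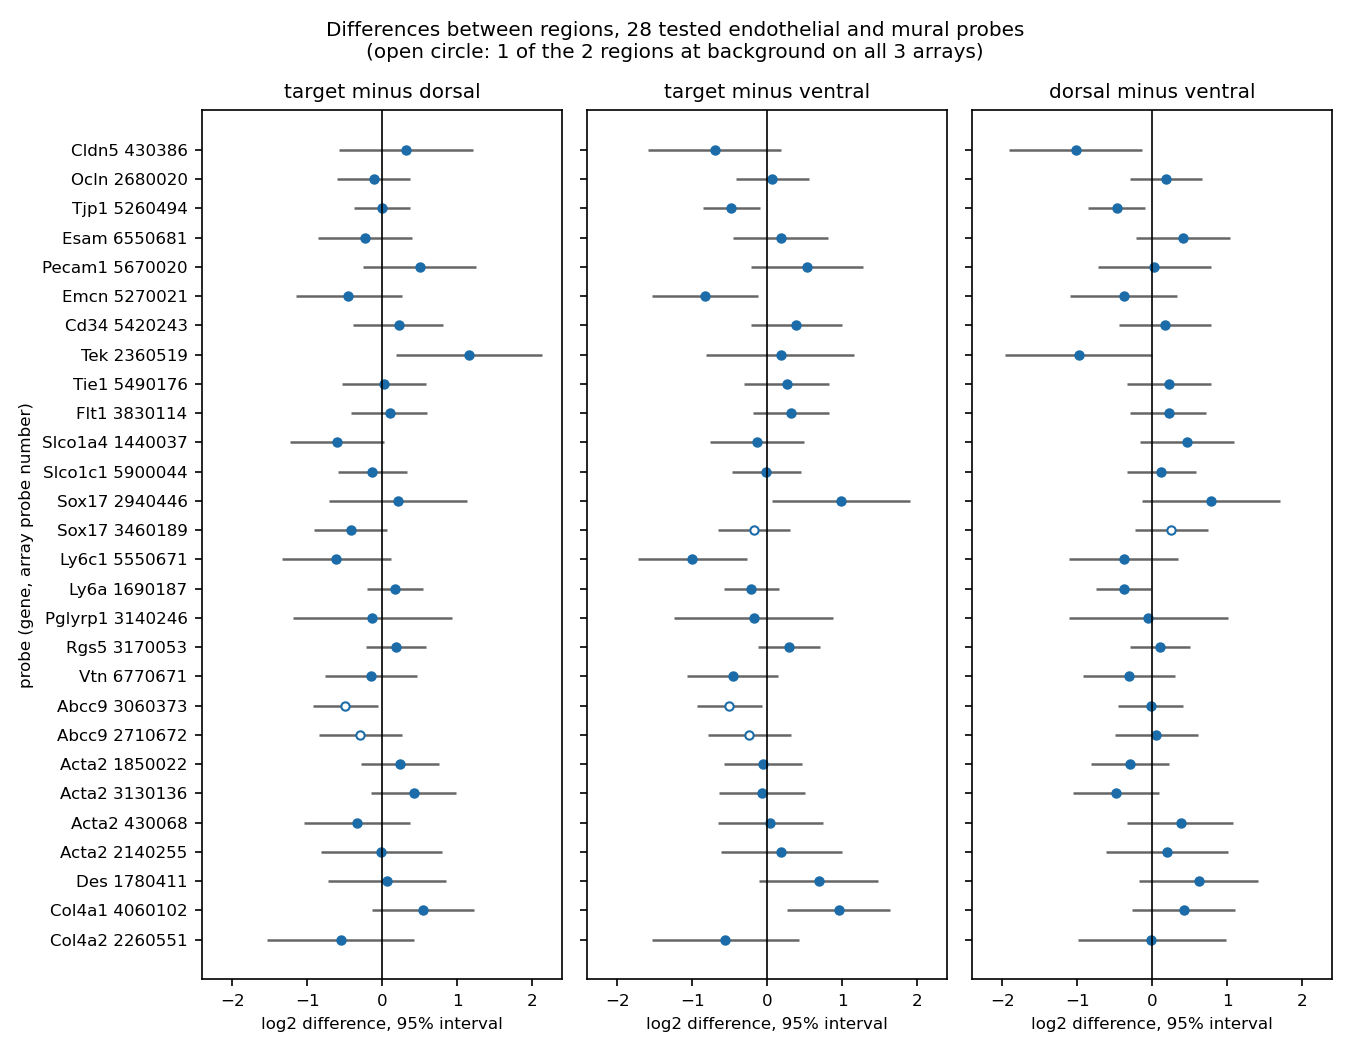
Differences between regions (log2) with 95% intervals for the 28 tested vascular probes in each of the 3 pairs; an open circle marks a probe that 1 region of the pair held at background on all 3 arrays. Points lie on both sides of 0 in each pair, from -1.02 to 1.16, and none passed the adjusted test.

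Junction and adhesion genes had 7 tested probes, 1 for each gene. Cldn5, the main sealing claudin of brain endothelium, read 8.58, 9.06 and 8.43 on the dorsal arrays, 8.76, 8.94 and 9.33 on the target arrays and 10.02, 8.74 and 10.37 on the ventral arrays. Ventral arrays 1 and 3 were the highest of the 9, while ventral array 2 lay among the dorsal and target arrays, so the regions overlapped. Dorsal minus ventral was -1.02 (95% interval -1.91 to -0.13, limma adjusted p = 0.165). Without ventral array 2 it was -1.50 (adjusted p = 0.0194, from a range of 0.0194 to 0.347 over all alternatives), and the F-test then passed as well (adjusted p = 0.0486). It was -0.69 without ventral array 3 and -0.61 under median centring of the arrays.

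Tjp1 encodes the scaffold protein that ties tight junctions to the actin skeleton, and is also made by other cells of the brain. It read 9.24, 9.11 and 9.25 in dorsal, 9.40, 9.10 and 9.10 in target and 9.58, 9.73 and 9.72 in ventral. All 3 ventral arrays lay above the other 6. The difference was -0.47 for dorsal minus ventral (95% interval -0.85 to -0.10, limma adjusted p = 0.126) and -0.48 for target minus ventral (adjusted p = 0.195). Dorsal minus ventral passed in the authors' quantile-normalized intensities and without background correction (-0.39, adjusted p = 0.0475 in each), and was -0.06 (adjusted p = 0.88) under median centring of the arrays, without quantile scaling.

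Pecam1, the adhesion molecule between endothelial cells, read 7.17, 6.34 and 6.22 in dorsal, 7.37, 6.64 and 7.22 in target and 6.95, 6.62 and 6.06 in ventral. In each of the 3 mice target was the highest, but the arrays of the regions overlapped. The differences were 0.50 over dorsal (limma adjusted p = 0.673) and 0.53 over ventral (adjusted p = 0.489), and its other probe was at background throughout. Emcn, a sialomucin of veins and capillaries, read 5.79, 5.73 and 6.46 in dorsal, 5.47, 5.62 and 5.55 in target and 5.72, 6.49 and 6.92 in ventral. Target held the lowest values, with 1 of its 3 arrays above background, and target minus ventral was -0.83 (adjusted p = 0.238). Ocln, a tight junction membrane protein, Esam, a junctional adhesion protein, and Cd34, a surface sialomucin, overlapped between regions. Esam ranged over the 9 arrays from 8.61 to 9.85, Ocln from 5.90 to 6.64 and Cd34 from 6.03 to 7.15.

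Among receptors for vessel growth factors, 3 genes were tested. Tek, the angiopoietin receptor, gave the largest difference of any vascular probe in any pair. It read 6.22, 6.54 and 6.41 in dorsal, 6.62, 8.46 and 7.57 in target and 6.73, 7.71 and 7.67 in ventral. All dorsal arrays lay below the other 6, and the target arrays were spread over 6.62 to 8.46. Target minus dorsal was 1.16 (95% interval 0.18 to 2.14, 2.23-fold, limma adjusted p = 0.444), higher in 3 of 3 mice, and dorsal minus ventral was -0.98 (adjusted p = 0.226). Target minus dorsal was 0.70 without target array 2, 1.63 without target array 1 and 0.58 without background correction (adjusted p from 0.277 to 0.812 over all alternatives), so its rank depends on these. Flt1, a receptor that binds vascular endothelial growth factor and limits its action, read 7.85, 8.11 and 8.07 in dorsal, 7.70, 8.38 and 8.25 in target and 7.61, 8.06 and 7.70 in ventral. Target exceeded ventral in 3 of 3 mice by 0.32 on average (adjusted p = 0.545), within the spread of the arrays. Tie1, the partner receptor of Tek, lay close to background, from 5.30 to 6.35 over the 9 arrays, with differences of 0.03, 0.26 and 0.23 in the 3 pairs.

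Among the transporters, Slco1c1, which carries thyroid hormone into the brain and is also made by astrocytes, read 9.68, 9.39 and 9.58 in dorsal, 9.36, 9.68 and 9.22 in target and 9.22, 9.71 and 9.36 in ventral. The regions overlapped, and the 95% intervals of all 3 differences stayed within 0.59 of 0, which is 1.5-fold. This holds for quantile scaling, since target minus dorsal was -0.13 there and -0.58 under median centring (adjusted p = 0.242). Slco1a4, an organic anion transporter, read 6.56, 6.81 and 6.57 in dorsal, 6.25, 6.23 and 5.64 in target and 6.34, 5.62 and 6.58 in ventral. All target arrays lay below the dorsal arrays, with a difference of -0.60 (limma adjusted p = 0.533), and 2 of 3 arrays were above background in target and in ventral. A probe that the array names MFSD2, a synonym of Mfsd2a in the RefSeq gene table, is outside the set by its name. It read 9.25, 9.22 and 9.34 in dorsal, 9.59, 9.45 and 9.70 in target and 9.20, 9.33 and 9.41 in ventral. All 3 target arrays lay above the other 6, by 0.31 over dorsal (95% interval -0.05 to 0.67, adjusted p = 0.576) and 0.27 over ventral (adjusted p = 0.459).

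Sox17, an arterial endothelial transcription factor, had 2 tested probes. One of them (2940446) read 6.0, 6.27 and 7.08 in dorsal, 7.22, 6.36 and 6.39 in target and 5.35, 5.21 and 6.45 in ventral, where 1 of 3 arrays was above background. Ventral held the lowest pair of values, yet ventral array 3 lay among those of target. Target minus ventral was 0.99 (95% interval 0.07 to 1.91, limma adjusted p = 0.281). The other probe (3460189) was above background on 2 dorsal and 1 target arrays and on no ventral array. Its target minus ventral was -0.17 (adjusted p = 0.76), opposite in sign to the 0.99 of the former. Its target minus dorsal was -0.42 (adjusted p = 0.576), opposite in sign to the 0.21 of the former.

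Of the other endothelial genes, Ly6c1, a surface protein that monocytes also carry, read 6.25, 6.53 and 5.93 in dorsal, 5.51, 5.75 and 5.62 in target and 7.38, 6.03 and 6.46 in ventral. Every target array lay below all dorsal and ventral arrays, and 1 of the 3 was above background. Target minus ventral was -1.0 (95% interval -1.72 to -0.27, limma adjusted p = 0.168), and target minus dorsal was -0.61 (adjusted p = 0.588). Ly6a, a related surface protein, read 9.26, 9.15 and 9.20 in dorsal, 9.27, 9.26 and 9.60 in target and 9.51, 9.61 and 9.63 in ventral. The ventral arrays all lay above the dorsal ones, with dorsal minus ventral at -0.38 (adjusted p = 0.215); under median centring the sign turned to 0.04. Pglyrp1, a peptidoglycan-binding protein, varied the most within regions, with an SD of 0.68 around the region means and values from 5.45 to 7.34.

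**Figure D3:**
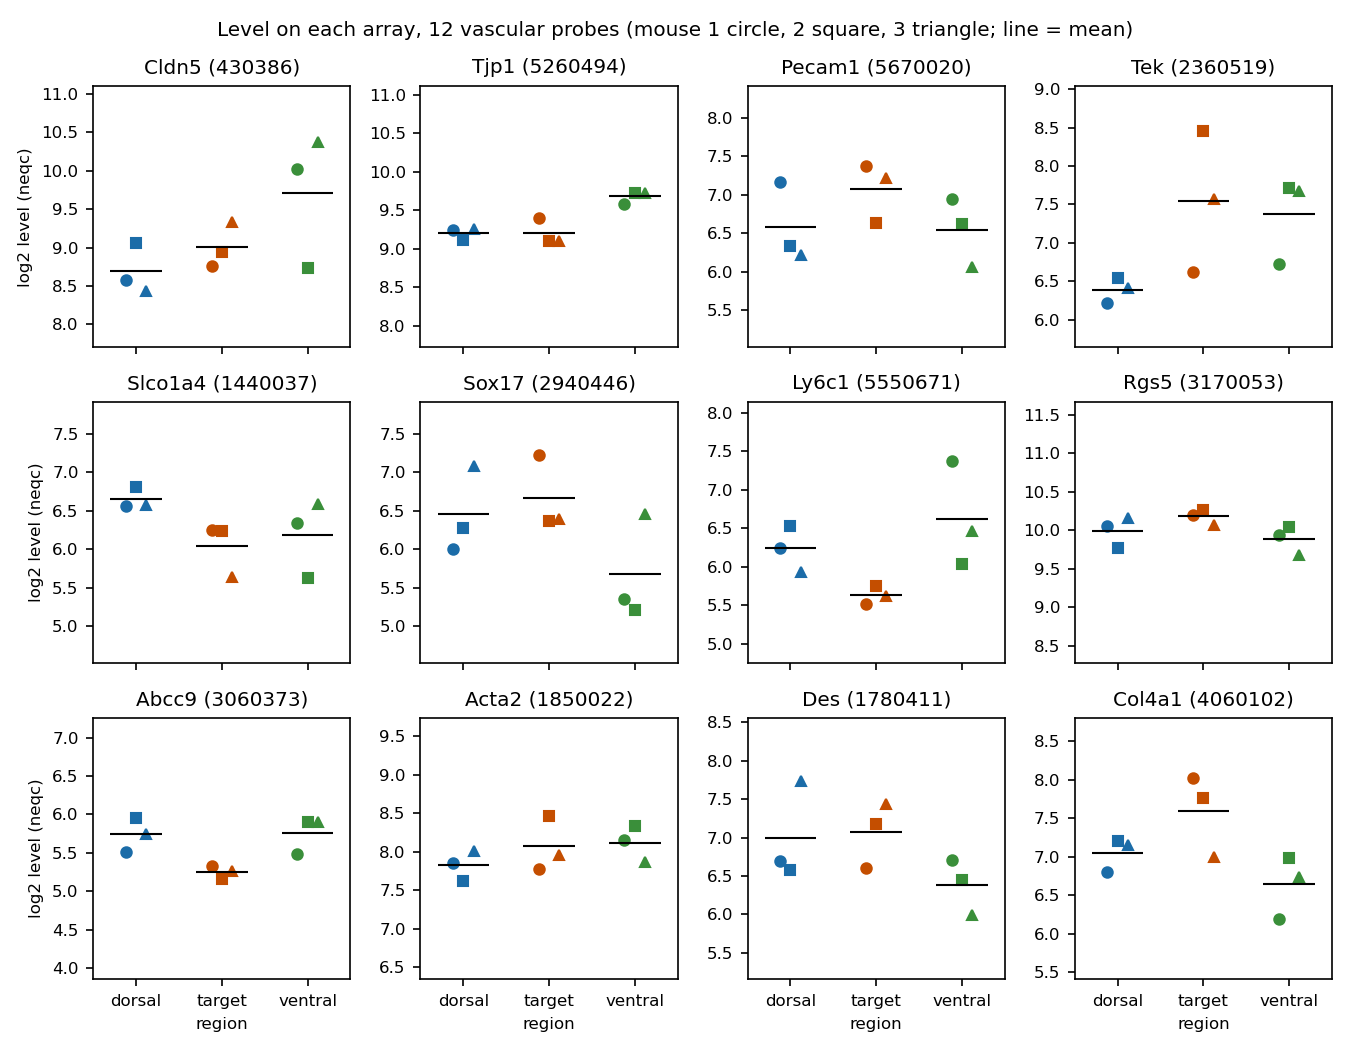
Level (log2, background-corrected and quantile-normalized) of tested vascular probes on each of the 9 arrays, by region, with the region mean. The 3 ventral arrays of Tjp1 sit at 9.58 to 9.73, above the other 6, while those of Cldn5 span 8.74 to 10.37.

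Pericyte genes had 4 tested probes of 3 genes. Rgs5, a regulator of G protein signalling and a marker of pericytes, read 10.05, 9.77 and 10.16 in dorsal, 10.20, 10.26 and 10.07 in target and 9.94, 10.04 and 9.68 in ventral. The target arrays all lay above the ventral ones, by 0.29 on average (95% interval -0.12 to 0.70, limma adjusted p = 0.489). The widest bound of its 3 intervals was 0.70, or 1.62-fold. Vtn, the matrix protein vitronectin, read 8.90, 8.53 and 8.52 in dorsal, 8.54, 8.90 and 8.06 in target and 9.05, 9.27 and 8.55 in ventral. In each mouse ventral exceeded target, although the arrays overlapped, and target minus ventral was -0.46 (adjusted p = 0.455). Abcc9, a subunit of the potassium channel of pericytes, was near background on both tested probes (3060373 and 2710672), with no target array above it. Both were above background on 2 dorsal arrays and 1 ventral array. With target held at the background limit, probe 3060373 gave 1.01-fold for dorsal over target (limma adjusted p = 0.465). It gave 1.03-fold for ventral over target (adjusted p = 0.238), and neither difference passed. As dorsal and ventral lay partly at background too, these folds are no lower bounds.

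Of the smooth muscle genes, Acta2, which encodes smooth muscle actin, had 4 tested probes, and they did not move together. Probe 1850022 read 7.85, 7.62 and 8.01 in dorsal, 7.77, 8.47 and 7.96 in target and 8.15, 8.34 and 7.87 in ventral. Probe 3130136 read 7.01, 6.66 and 7.0 in dorsal, 7.16, 7.09 and 7.68 in target and 6.92, 7.62 and 7.58 in ventral. Probe 430068 read 7.23, 7.71 and 7.25 in dorsal, 7.0, 7.24 and 6.96 in target and 6.28, 7.25 and 7.53 in ventral. Dorsal minus ventral was thus -0.30, -0.48 and 0.38 for these probes and 0.20 for the remaining one (2140255), with limma adjusted p from 0.306 upward. The sequences of the probes were not used here, so which Acta2 transcript each detects is not known. Des, the muscle intermediate filament protein, read 6.69, 6.58 and 7.73 in dorsal, 6.61, 7.17 and 7.43 in target and 6.71, 6.45 and 5.99 in ventral. The highest value lay in dorsal and the lowest in ventral, the regions overlapped, and target minus ventral was 0.69 (adjusted p = 0.391).

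The collagen IV genes of the basement membrane had 1 tested probe each. Col4a1 read 6.80, 7.21 and 7.15 in dorsal, 8.03, 7.76 and 7.0 in target and 6.19, 6.98 and 6.74 in ventral. Each target array lay above all ventral arrays, and the difference was 0.96 (95% interval 0.27 to 1.64, limma adjusted p = 0.159), higher in 3 of 3 mice. This was the smallest adjusted p of a vascular probe in that pair. Col4a2, whose product joins that of Col4a1 in one trimer, gave a target minus ventral of -0.56, opposite in sign. Its probe was above background on 2 dorsal, 1 target and 2 ventral arrays.

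The precision of these values sets what the comparison could show. The SE of a difference had a median of 0.27 over the vascular probes, the same as over all tested probes, and a range from 0.16 to 0.47. The SEs, intervals and limits given here are from the fit with region alone, which leaves out the pairing by mouse. With the mouse as a block, the unadjusted limma p of Tek in target minus dorsal fell from 0.0256 to 0.00536. That of Tjp1 in target minus ventral rose from 0.0176 to 0.0314. At the median SE, a difference of 2.11 (4.32-fold) would have been needed to pass in target against dorsal, 1.32 (2.49-fold) in target against ventral and 1.04 (2.06-fold) in dorsal against ventral. Among the 17 probes above background on all 9 arrays, the 95% interval stayed within 1 on the log2 scale, which is 2-fold, for 12, 11 and 10 probes in the 3 pairs. Ocln, Tjp1, Cd34, Flt1, Slco1c1, Ly6a, Rgs5 and Acta2 probe 1850022 did so in all 3 pairs. These intervals hold for quantile scaling; median centring moved the median of all probes to -0.346 in target minus dorsal and 0.364 in dorsal minus ventral. For Cldn5, Tek and Col4a1 the intervals reached past 2-fold in every pair. On log2 intensities before background correction, the error of a mean over beads had a median of 0.06, against an SD between arrays of a region of 0.177. The SD between arrays was the larger in 27 of 28 probes, and for Cldn5 it was 0.453 against a bead error of 0.039.

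As a summary per array, the mean log2 level of the 17 tested endothelial probes ran from 7.26 to 7.31 in dorsal, 7.22 to 7.37 in target and 7.15 to 7.46 in ventral. The mean of the 9 tested pericyte and smooth muscle probes ran from 7.15 to 7.40, 7.11 to 7.28 and 7.05 to 7.33. In both cases the regions overlapped. Markers of other cell types were read in the same way. Microglia and leukocyte genes (7 tested probes) had array means of 7.45 to 7.79 in dorsal, 7.86 to 7.99 in target and 7.94 to 8.05 in ventral. These means lean on 1 probe, Laptm5. Its dorsal minus ventral was -2.59, against a median of -0.16 over the 7 probes. Neuronal genes (10 probes) had array means of 9.39 to 9.48, 9.44 to 9.59 and 9.58 to 9.82. Fibroblast and meningeal genes (8 probes) had 6.51 to 6.77, 6.55 to 6.74 and 6.36 to 6.45, with all ventral arrays below the others. Here the means lean on Slc13a4, which was above background on 1 ventral array. Its target minus ventral was 2.28, against a median of 0.12 over the 8 probes, 5 of them above 0. Choroid plexus and ependymal genes (9 probes) had array means of 6.08 to 6.28, 6.45 to 6.56 and 6.28 to 6.36, with target highest. Red cell genes (15 probes) ran from 8.69 to 9.16, astrocyte genes (12 probes) from 9.26 to 9.42 and oligodendrocyte genes (19 probes) from 10.15 to 10.39 over the 9 arrays. The part of these cell types in the vascular values was not tested.

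A wider set of 92 genes of vessels, outside the 40 names, was read the same way. Of these, 89 had a probe, and 88 probes of 58 genes were tested. In target against dorsal 0 passed with limma. In target against ventral 1 was higher and 1 lower (2.27%, against 1.78% of all), and in dorsal against ventral 2 were higher and 5 lower (7.95%, against 7.98% of all). These shares are near those of all tested probes. At an unadjusted p below 0.05 lay 13.6%, 15.9% and 21.6% of the 88 probes in target against dorsal, target against ventral and dorsal against ventral, and 9.60%, 16% and 22.2% of all. By list, dorsal against ventral gave 1 higher and 1 lower of 21 junction and adhesion probes, 1 lower of 6 transporter and caveola probes and 1 lower of 19 angiogenic and Notch signalling probes. It gave 1 lower of 11 Wnt and transcription factor probes, 1 higher and 1 lower of 12 mural probes and 0 of 19 vascular matrix probes (6 at an unadjusted p below 0.05, which 22.2% of all tested probes met).

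Hey1, a transcriptional repressor that Notch signalling induces in arteries and also in other cells, read 8.70, 8.37 and 8.23 in dorsal, 9.50, 9.62 and 9.18 in target and 10.53, 10.48 and 10.31 in ventral. The 3 regions did not overlap and ran in that order. Dorsal was lower than ventral by a difference of -2.01 (SE 0.20, limma adjusted p = 6.97e-04). Target was lower than ventral by a difference of -1.0 (adjusted p = 0.0412, or 0.061 when mouse was a block). Median centring (0.105) and leaving out any 1 array other than dorsal array 1 (0.0574 to 0.153) ended the latter call.

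Cspg4, a proteoglycan of pericytes and of oligodendrocyte precursors, read 9.11, 9.0 and 9.18 in dorsal, 8.57, 8.49 and 8.46 in target and 7.90, 8.32 and 8.08 in ventral. It was highest in dorsal on every array, and dorsal minus ventral was 1.0 (SE 0.17, limma adjusted p = 0.00839). Robo4, an endothelial guidance receptor, read 8.69, 8.75 and 8.87 in dorsal, 8.75, 8.78 and 8.73 in target and 7.87, 7.89 and 8.06 in ventral on probe 2630333. Ventral lay below both other regions on every array, and dorsal minus ventral was 0.83 (SE 0.15, adjusted p = 0.0122). Target minus ventral was 0.81 (adjusted p = 0.0375, or 0.0758 when mouse was a block), a call that ended under median centring (0.191) and when any 1 of the 9 arrays was left out (0.0522 to 0.126). The other tested Robo4 probes differed by 0.16 and 0.29 between dorsal and ventral and did not pass.

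Other calls likewise rested on 1 probe of a gene. Tfrc, the transferrin receptor that brings iron across the barrier, read 9.11, 8.99 and 9.08 in dorsal, 10.20, 9.78 and 10.01 in target and 10.49, 10.61 and 10.45 in ventral on probe 1780524. The regions did not overlap, and dorsal minus ventral was -1.46 (SE 0.17, limma adjusted p = 0.00158), whereas probe 620110 gave 0.01 (adjusted p = 0.985). Jam2, a junctional adhesion molecule, had a dorsal minus ventral of -2.20 (SE 0.35, adjusted p = 0.00667) on probe 3840703. Its 3 other tested probes gave -0.19, 0.42 and -0.25 and did not pass. Tpm1, a tropomyosin of the contractile apparatus, gave -1.84 (SE 0.28, adjusted p = 0.00469) on probe 4220056 and -0.24 (adjusted p = 0.566) on probe 4060484. Apcdd1, a Wnt inhibitor and target, was above background on 0 dorsal, 0 target and 3 ventral arrays. It thus met the filter for testing only through the region where it was high, and its call is not independent of that filter. It counts among the 5 lower probes above. In the main processing the bound was at least 1.46-fold for ventral over dorsal (limma adjusted p = 0.0368, or 0.0694 when mouse was a block). Leaving out any 1 dorsal array (0.0672 to 0.129) or target array 3 (0.0503) also ended that call. So did no background correction and the authors' intensities (0.109 each, with a fitted difference of -0.32 against -0.90), median centring (0.0603), an offset of 50 (0.0559) and an intensity trend (0.0582).

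**Figure D4:**
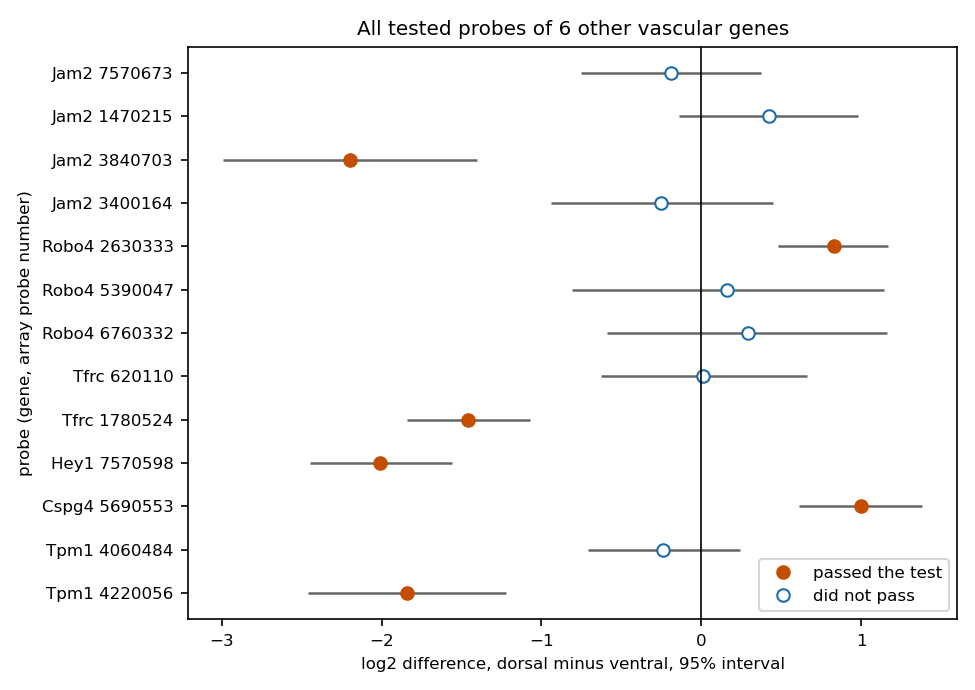
Dorsal minus ventral difference (log2) with its 95% interval for every tested probe of 6 vessel genes outside the set; filled points passed the adjusted test. Hey1 lies at -2.01 and Cspg4 at 1.0, while the open points, other probes of Jam2, Tfrc, Tpm1 and Robo4, lie between -0.25 and 0.42.

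Some of these genes are shared with other cells, whose own markers also passed in dorsal against ventral. Probes lower in dorsal numbered 1 of 7 for microglia and leukocytes, 4 of 19 for oligodendrocytes, 1 of 12 for astrocytes, 3 of 10 for neurons and 1 of 9 for choroid plexus and ependyma, where 3.92% of all tested probes were lower. The median difference of these lists was -0.16, 0.04, 0.08, -0.12 and 0.02, with 2 of 7, 10 of 19, 7 of 12, 4 of 10 and 5 of 9 probes above 0, against a median of 0.04 and 53.4% of all. Of 15 red cell probes 2 were higher and 2 lower, all named HBB-B1 on the array, and of 8 fibroblast and meningeal probes 0 passed (3 at an unadjusted p below 0.05). The microglial gene Laptm5 had a difference of -2.59 (limma adjusted p = 0.00164) and Stmn2 of neurons -1.17 (adjusted p = 0.0164). Of the tested probes of Slc1a2, an astrocyte gene, 1 passed at -1.22 (adjusted p = 0.00367), and the others gave -0.50 and 0.72 and did not. The calls of Mbp, Mobp, Syn1 and Rarres2 likewise rested on 1 probe each. The other tested probes ran from -0.17 to 0.62 for Mbp and from -0.31 to 0.29 for Mobp. They gave -0.02 for Syn1 and -0.21 and 0.91 for Rarres2, and none passed. In target against ventral, Slc13a4 of the meninges was higher by 2.28 (adjusted p = 0.0168, or 0.0484 when mouse was a block). Laptm5 was lower in target, at -1.63 (adjusted p = 0.0356, or 0.061 with the block). Slc1a2 probe 3940064 was lower too, at -0.89 (adjusted p = 0.0412, or 0.0862 with the block). The other tested Slc1a2 probes gave -0.38 and 0.08 and did not pass. No other probe of these lists passed in that pair, where 1.78% of all tested probes did. The part of these cell types in the values of Hey1, Cspg4, Tfrc, Tpm1, Jam2 and Robo4 was not tested.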

How the data were processed

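Total RNA from 3 brainstem regions was labelled and hybridised to Illumina mouse bead arrays, 9 in all. Per the file headers, the authors exported intensities on a linear scale with GenomeStudio 1.6.0, unnormalized and quantile-normalized, with nothing averaged over arrays. The deposited export also holds a detection score, a fraction from 0 to 1, for each probe (1 minus it was used as the detection p), and the number and SD of beads. The log2 values were computed from the deposited unnormalized intensities by neqc of limma 3.58.1 (R 4.3.3): normexp background correction, with the negative controls' mean and spread derived from detection p-values, an offset of 16 and quantile normalization. Probes with a detection p below 0.05 on at least 3 arrays were fitted with lmFit and eBayes, with region as the term over all 9 arrays, with Benjamini-Hochberg adjustment over 20461 probes. The fit was tested on simulated data.

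If all 3 arrays of a region lay at background, the fold is a bound: on each such array the probe took its own level or, if higher, the lowest level of any probe above background. Where the other region lay partly at background too, the fold is no lower bound. The labels' numbers pair the samples because a file header names the mouse of each array. Deviations of same-numbered arrays correlated from -0.096 to 0.146 (median 0.029, above 0.1 in 3 of 9 pairs). The mouse as a block was an alternative, as were other background, offset, filter, scaling and prior settings and leaving out each array. The sources used here name no batch.

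Named genes were every vascular gene with a call, the largest difference of each role group, Cldn5, Pecam1, Pdgfrb, Rgs5 and Acta2, genes whose tested probes differ in sign, and up to 4 called genes of each other list. Others were named after their values were seen. A gene that the rule takes is not reported here. The genes and lists were chosen with earlier results of these data known. Gene names are those of the array, and neither probe sequences nor coordinates entered.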

Additional observations from a re-analysis of the deposited data

How the results depend on the processing

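Across 17 alternatives, 9 of which left out 1 array, no vascular probe passed in any pair except Tjp1 and Cldn5. Tjp1 passed in dorsal minus ventral without background correction and in the authors' quantile-normalized intensities (1 probe each, adjusted p = 0.0475). Cldn5 passed without ventral array 2, also in the F-test (1 probe each; leave-one-out counts ran from 0 to 1 in both). Each of the 23 tested vascular genes was followed in the pair of its largest difference, so the Tjp1 calls in dorsal minus ventral lie outside that count. Of 380 such values, 374 kept their sign and their side of the threshold. Sizes were less stable. Without background correction, and in the authors' intensities, 16 of 23 were smaller by over 1.5 times, among them Emcn (-0.83 to -0.29), Sox17 (0.99 to 0.36), Ly6c1 (-1.0 to -0.37), Abcc9 (-0.51 to -0.18) and Col4a1 (0.96 to 0.47). An offset of 50 did so for 5, and median centring made 3 smaller and 3 larger. The sign turned for Ocln, dorsal minus ventral, at -0.0018 without ventral array 3 (-0.0018 to 0.37 over arrays left out), and for Tie1, target minus ventral, at -0.02 without ventral array 2 (-0.02 to 0.43). It turned for Ly6a, dorsal minus ventral, at 0.04 under median centring, and for Pglyrp1, target minus ventral, at 0.21 without ventral array 1 and 0.13 without target array 3 (-0.75 to 0.21). The cause was not tested.

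With the mouse as a replicate block, 0 vascular probes passed in each pair, and the calls over all probes were 3 for target minus dorsal, 154 for target minus ventral, 1346 for dorsal minus ventral and 766 in the F-test. The block ended the calls of Hey1 and Robo4 in target minus ventral and of Apcdd1, and no other followed call of a vessel gene. Over all probes, target minus dorsal gave 12 calls, against 88 without background correction, 88 in the authors' intensities, 46 with an offset of 50, 20 without the filter, 42 for probes above background on all 9 arrays, 125 with an intensity trend and 1 to 3 with 1 array left out. Target minus ventral gave 365, against 833, 832, 557 with the offset, 178 under median centring, 832 with the trend and 64 to 302 with 1 array left out. Dorsal minus ventral gave 1632, against 2563 under median centring and 939 to 1452 with 1 array left out. The F-test gave 1071, against 1656 with the trend and 563 to 923. Median centring moved the median of all probes from 0.04 to 0.364 in dorsal minus ventral (2159 higher and 404 lower, against 830 and 802) and from -0.02 to -0.346 in target minus dorsal (3 higher and 14 lower, against 9 and 3). The vascular medians moved with it, to 0.364 and -0.355. Without background correction target minus ventral split into 431 higher and 402 lower, against 239 and 126.

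The followed calls of other vessel genes, an alternative chosen after seeing the data, held in dorsal minus ventral under every alternative for Cspg4, Hey1, Jam2, Robo4, Tfrc and Tpm1 (highest adjusted p 0.0494), and Apcdd1 ranged from 0.0392 to 0.129. Slide as a block was not run, since no slide is used here. Low signal limits the 11 tested vascular probes that were not above background on all 9 arrays.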
